A study of Mus musculus with 4 samples.

Results

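The genes described here encode zinc finger proteins with a BTB or a SCAN domain in AML12 cells, a mouse hepatocyte line. Members were the entries of the deposited table whose symbol began with Zbtb, Zscan or Zkscan followed by a digit, 74 of 52189 genes. Of these, 40 were BTB genes and 27 were SCAN genes, of which 16 were Zscan and 11 Zkscan. The remaining 7 were given apart: 2 genes named for lying on the strand opposite a Zbtb gene, and 5 entries that their symbol or the GENCODE M21 annotation marks as pseudogenes.

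RNA bound to SAFB, a nuclear RNA-binding and DNA-binding protein also called scaffold attachment factor B, was recovered by immunoprecipitation and sequenced (RIP-seq). The comparison asked which RNAs were more abundant in the precipitate of an antibody against SAFB (SAFB RIP, 2 libraries) than in that of control IgG (IgG RIP, 2 libraries). Per the labels' protocols, all cells were AML12 cells grown with 10% fetal bovine serum, an insulin, transferrin and selenium supplement and 0.1 µM dexamethasone, and were crosslinked with ultraviolet light. Nuclei were lysed and sonicated, and the lysate was split between the 2 antibodies, so both groups hold nuclear RNA of cells of 1 line. The input taken from the lysate was not analysed here.

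Values were TPM, the share of a library's transcripts that a gene takes. Read depth cannot be read from such shares and is unknown for all 4 libraries. Safb itself, the targeted gene, had 988 and 880.1 TPM in the SAFB RIP, against 169.8 and 161 TPM in the IgG RIP, a log2 fold change of 2.49 ± 0.11 (SE; limma adjusted p = 0.00373). This is a value of the Safb RNA and does not measure how much SAFB protein was precipitated. The SAFB RIP libraries listed 22389 and 21006 entries above 0, against 16031 and 17278 in the IgG RIP libraries. Protein-coding genes took 83.7% and 83.7% of TPM in the SAFB RIP, against 68.0% and 67.8% in the IgG RIP. Of 10 hepatocyte markers 9 were tested, and their summed level was 6207 and 6444 TPM in the SAFB RIP against 7239 and 7353 TPM in the IgG RIP. Apoa2, one of them, was listed at 0 in all 4 libraries. The summed levels of 5 fibroblast, 3 endothelial and 3 leukocyte markers each stayed below 2 TPM in every library.

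C2H2 zinc fingers are small folds that hold a zinc ion between a pair of cysteines and a pair of histidines, and a row of them reads a DNA sequence. The BTB domain, at the front of ZBTB proteins, lets them pair with one another and recruits corepressors such as NCOR1 and BCOR. The SCAN domain is also a pairing domain, found only in vertebrates and without a known repressor function of its own. ZKSCAN proteins carry in addition a KRAB domain, a module best known for recruiting the corepressor TRIM28. Neighbouring fingers are often joined by a conserved linker of 5 amino acids, from threonine to proline, which is coded by purine-rich RNA.

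The families differed in their median number of fingers, though their ranges overlapped. Among members tested, the representative protein had a median of 4 C2H2 motifs in the BTB family (range 1 to 14) and 7 in the SCAN family (range 4 to 14). The linker was present in 13 of 38 BTB genes, with 20 copies in all, and in 17 of 18 SCAN genes, with 73 copies. The first linker of 10 members is printed below because the linker occurs in both families, and because its codons can differ only at the last base of each. The 10 were chosen by hand and not by a rule. The first 6 genes rose in the SAFB RIP and the last 4 did not pass the test. Sequences are the RNA-sense strand of GENCODE M21 transcripts, 5′ to 3′, in T, with mm10 coordinates of the printed stretch. Capitals mark the 15 bases of the linker and lower case the 9 bases on each side. All lie in coding exons, and the stretch of Zbtb24 crosses an exon junction, so its coordinates include an intron.
Zscan29 (chr2:121161116-121161148, minus strand): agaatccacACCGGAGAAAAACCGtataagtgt
Zscan21 (chr5:138133350-138133382, plus strand): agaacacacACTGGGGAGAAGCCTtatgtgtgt
Zkscan1 (chr5:138100979-138101011, plus strand): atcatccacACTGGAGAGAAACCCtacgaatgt
Zkscan3 (chr13:21388348-21388380, minus strand): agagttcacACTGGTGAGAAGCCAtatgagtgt
Zbtb41 (chr1:139429146-139429178, plus strand): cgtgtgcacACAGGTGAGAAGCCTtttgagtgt
Zbtb24 (chr10:41456603-41462298, plus strand): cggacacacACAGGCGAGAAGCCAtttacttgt
Zscan25 (chr5:145290791-145290823, plus strand): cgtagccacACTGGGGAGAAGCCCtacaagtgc
Zscan20 (chr4:128586348-128586380, minus strand): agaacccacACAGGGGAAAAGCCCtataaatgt
Zbtb17 (chr4:141464608-141464640, plus strand): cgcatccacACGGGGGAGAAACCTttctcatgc
Zbtb7a (chr10:81145159-81145191, plus strand): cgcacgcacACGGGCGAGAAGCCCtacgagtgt
Of the last bases of the 5 linker codons, 2 were G or C in Zscan29, Zkscan1, Zkscan3 and Zbtb41, 3 in Zscan21, Zbtb24, Zscan20 and Zbtb17, 4 in Zscan25 and 5 in Zbtb7a. First linkers not printed include that of Zbtb16, which rose, with 80.0% G or C at these positions. That of Zkscan7, which did not pass, had 20.0%. Over all linkers of the BTB family, G or C stood at 52.0% of these positions in the 10 linkers of 8 genes that rose. In the 10 linkers of 5 genes that did not pass the share was 74.0%, and Zbtb17 gave 4 of these 10. Each linker was counted singly, and linkers of the same gene are not independent. In the SCAN family the share was 58.0% in the 50 linkers of 12 genes that rose. It was 55.7% in the 23 linkers of 5 genes that did not pass, so the linkers of that family showed no such gap.

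In both families most tested members had higher values in the SAFB RIP than in the IgG RIP, and none fell in the fit reported here. A gene was tested where at least 2 of the 4 libraries had 1 TPM or more, and was called where its limma p, adjusted by the Benjamini-Hochberg method over all genes tested, was under 0.05. Of 38 BTB genes tested, 20 rose, 0 fell and 18 did not pass, beside 29.8% of all genes tested that rose and 8.3% that fell. Of 18 SCAN genes tested, 12 rose, 0 fell and 6 did not pass. The median log2 fold change, SAFB RIP over IgG RIP, was 1.03 in the BTB family and 1.29 in the SCAN family, against 0.46 over all 16647 genes tested. With the median of each library set equal, which removes that general shift, 11 BTB genes rose and 2 fell, and 8 SCAN genes rose and 0 fell. That scaling called 16.4% of all genes higher and 17.6% lower. Since a gene can enter through the SAFB RIP libraries alone, these counts are over the genes that passed the filter and not over all members. Differences between single members were not tested.

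The counts depended on single libraries more than the medians did. Without SAFB RIP replicate 1, 10 BTB and 7 SCAN genes rose, beside 13.4% of all genes tested. Without SAFB RIP replicate 2, 13 BTB and 9 SCAN genes rose, beside 15% of all genes. Without IgG RIP replicate 1, 28 BTB and 17 SCAN genes rose, beside 42.8% of all genes. Without IgG RIP replicate 2, 23 BTB and 16 SCAN genes rose, beside 47.6% of all genes. The members' counts thus moved with the share over all genes. Of the 20 BTB genes that rose 8, and of the 12 SCAN genes 5, rose under every one of 15 alternative ways of processing. The same count was not made over all genes, so whether the members kept their calls more or less often than other genes is not known.

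**Figure D1:**
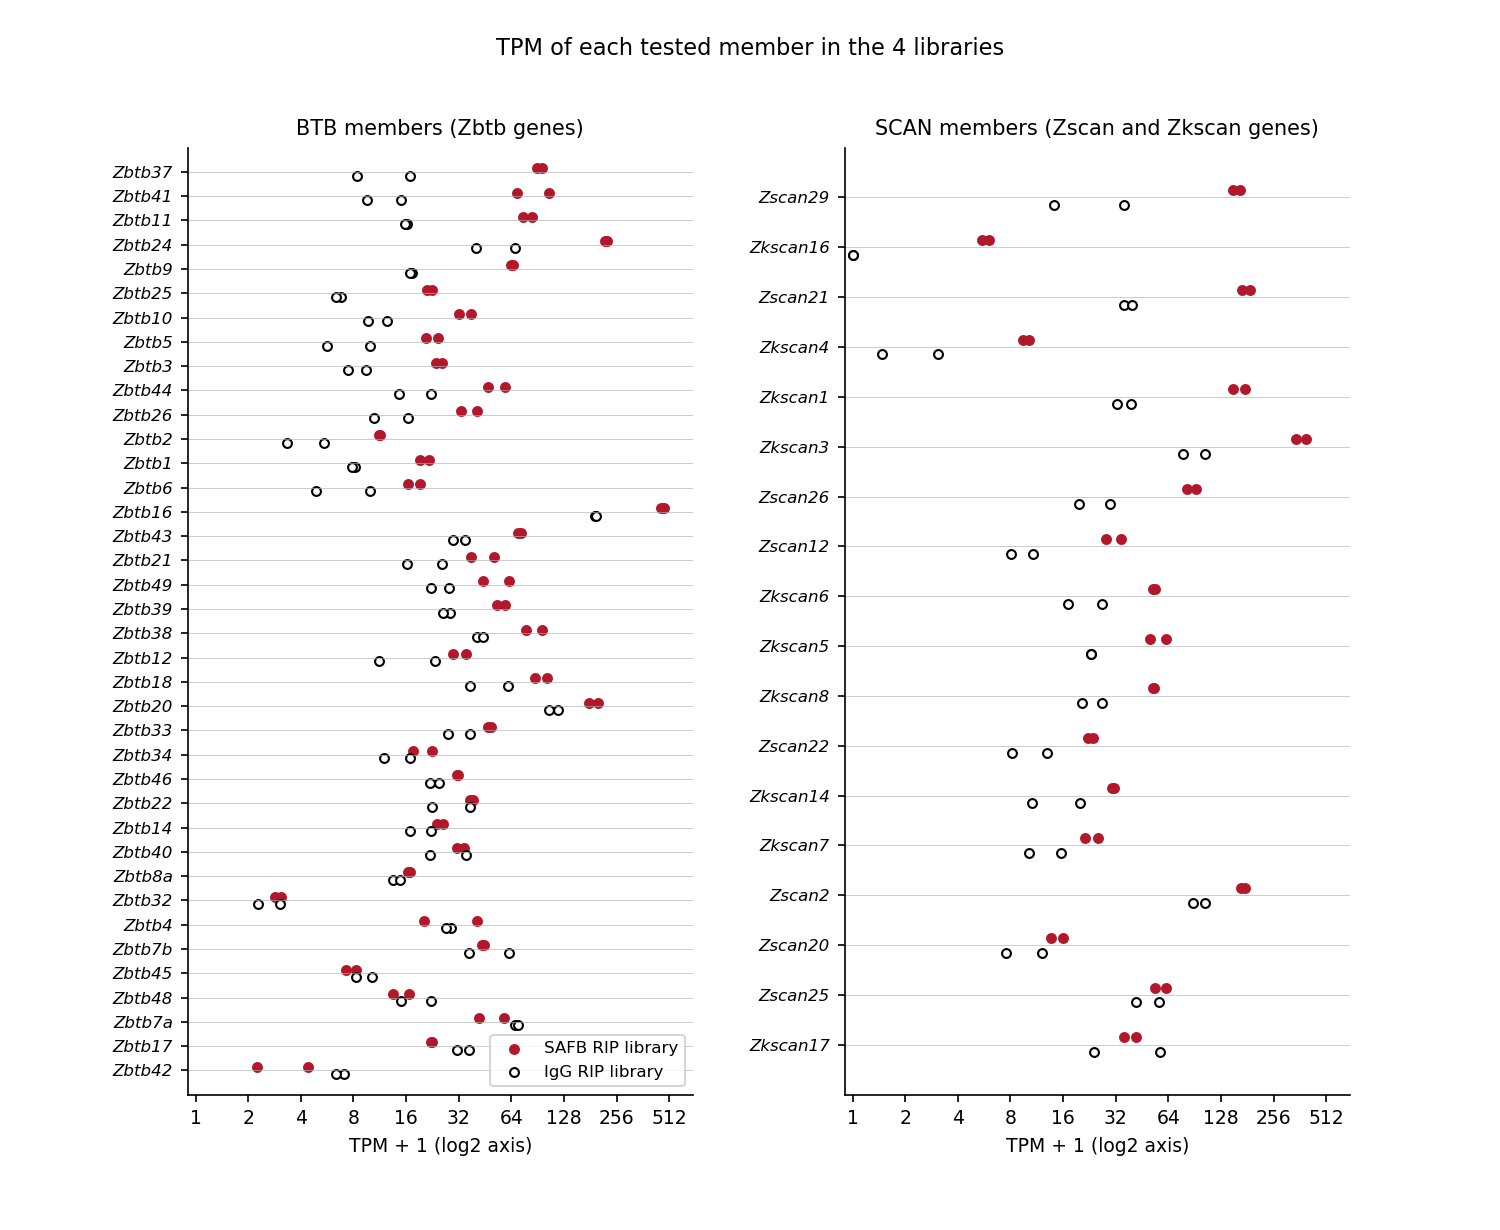
TPM + 1 on a log2 axis for every tested BTB gene (left) and SCAN gene (right), with filled points for the 2 SAFB RIP libraries and open points for the 2 IgG RIP libraries. Both SAFB RIP points lie to the right of both IgG RIP points for 28 of 38 BTB and 16 of 18 SCAN genes.

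In 28 BTB genes both SAFB RIP libraries lay above both IgG RIP libraries, in 4 they lay below, and in 6 the groups overlapped. For the SCAN family these numbers were 16, 0 and 2. Over all genes tested, the SAFB RIP libraries lay above in 52.3% and below in 21.4%. The tested BTB genes had a median of 36.6 and 34.6 TPM in the SAFB RIP, against 21.2 and 15.8 TPM in the IgG RIP. For the SCAN genes the medians were 51.9 and 50.2 TPM in the SAFB RIP, against 17.4 and 22.7 TPM in the IgG RIP. Together the members took 0.379% and 0.380% of TPM in the SAFB RIP, against 0.161% and 0.162% in the IgG RIP.

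The BTB genes with the largest fold changes were Zbtb37, Zbtb41, Zbtb11, Zbtb24, Zbtb9 and Zbtb25. Zbtb37 (chromosome 1, 161002922 to 161034849) is a little-studied member of the family. It had 94.8 and 88.8 TPM in the SAFB RIP, against 7.40 and 15.9 TPM in the IgG RIP, a log2 fold change of 2.96 ± 0.37 (SE; limma adjusted p = 0.00895). Zbtb41 (chromosome 1, 139422288 to 139453005) had 105 and 67.6 TPM in the SAFB RIP, against 8.52 and 14.0 TPM in the IgG RIP, a log2 fold change of 2.83 ± 0.34 (limma adjusted p = 0.00837). Neither gene's groups came near each other. An exon of Zbtb37 overlaps one of Serpinc1 on the opposite strand, which also rose, with a log2 fold change of 1.26. Zbtb11 (chromosome 16, 55973883 to 56008913), needed for mitochondrial function and blood cell development in vertebrates, had 82.9 and 73.5 TPM in the SAFB RIP, against 15.1 and 14.7 TPM in the IgG RIP. Its log2 fold change was 2.31 ± 0.16 (limma adjusted p = 0.00464), and its IgG RIP libraries were nearly equal.

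Zbtb24 (chromosome 10, 41450383 to 41465574) activates Cdca7 and is mutated in a human immunodeficiency syndrome with unstable centromeres. It had 224 and 219 TPM in the SAFB RIP, against 39.1 and 66.3 TPM in the IgG RIP, a log2 fold change of 2.10 ± 0.27 (limma adjusted p = 0.00935). It was thus both among the most abundant BTB RNAs and among those with the largest fold changes. Zbtb9 (chromosome 17, 26973167 to 27008376) had 62.6 and 64.2 TPM in the SAFB RIP, against 16.4 and 15.8 TPM in the IgG RIP, a log2 fold change of 1.91 ± 0.15 (limma adjusted p = 0.00510). Zbtb25 (chromosome 12, 76347782 to 76369602) had 21.5 and 20.0 TPM in the SAFB RIP, against 5.79 and 5.40 TPM in the IgG RIP, a log2 fold change of 1.72 ± 0.27 (limma adjusted p = 0.0134). For both genes the 2 libraries of each group lay close together and the groups far apart, but Zbtb25 did not pass with either SAFB RIP library left out. Zbtb9 shares exon sequence on the same strand with Ggnbp1, whose identifier was not found among the deposited entries. How reads of their shared exons were assigned is not given, so the values of Zbtb9 are uncertain.

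The other BTB RNAs of high level rose less. Zbtb16, also called PLZF, a factor of germline stem cells and innate-like lymphocytes that glucocorticoids induce in many cells, was the most abundant member of both families. It lies on chromosome 9, 48654297 to 48836222, and had 459.5 and 478 TPM in the SAFB RIP, against 193 and 195 TPM in the IgG RIP, a log2 fold change of 1.27 ± 0.09 (limma adjusted p = 0.00464). Its libraries were nearly equal within each group. All 4 libraries came from cells grown with dexamethasone, a glucocorticoid, so its level without dexamethasone was not measured.

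Zbtb20 (chromosome 16, 42875881 to 43642602) represses alpha-fetoprotein in the liver after birth. It had 199 and 176 TPM in the SAFB RIP, against 105 and 118 TPM in the IgG RIP, a log2 fold change of 0.75 ± 0.12 (limma adjusted p = 0.0149). Zbtb18 (chromosome 1, 177442351 to 177450764), a repressor needed in brain development and muscle differentiation, had 101 and 86.5 TPM in the SAFB RIP, against 36.4 and 60.4 TPM in the IgG RIP, a log2 fold change of 0.98 ± 0.27 (limma adjusted p = 0.0495). The SAFB RIP libraries lay above the IgG RIP libraries for both genes, but with library medians set equal their log2 fold changes were 0.29 and 0.52 and neither passed. Zbtb18 lost its call under 10 of the 15 alternatives.

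ZBTB33 (Kaiso), ZBTB4 and ZBTB38 form a group that binds methylated DNA. Zbtb38 (chromosome 9, 96682770 to 96752831) had 94.3 and 76.8 TPM in the SAFB RIP, against 40.0 and 42.9 TPM in the IgG RIP, a log2 fold change of 1.02 ± 0.16 (limma adjusted p = 0.0129). Zbtb33 had 46.3 and 47.9 TPM in the SAFB RIP, against 26.8 and 36.4 TPM in the IgG RIP, a log2 fold change of 0.58 ± 0.20 that did not pass (limma adjusted p = 0.0836). Of this trio only Zbtb38 rose, and it did not pass with library medians set equal. Zbtb4 (chromosome 11, 69765912 to 69784023) had 19.2 and 39.8 TPM in the SAFB RIP, against 27.9 and 26.1 TPM in the IgG RIP, a log2 fold change of 0.04 ± 0.38 (limma adjusted p = 0.948). The SAFB RIP libraries of Zbtb4 stood on either side of its IgG RIP libraries.

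Among members known from lymphocytes and other blood cells, some rose and some did not. Zbtb1, needed for lymphocyte development, had 20.6 and 18.4 TPM in the SAFB RIP, against 7.15 and 6.85 TPM in the IgG RIP, a log2 fold change of 1.36 ± 0.26 (limma adjusted p = 0.0212) that did not pass with library medians set equal. Zbtb7b (chromosome 3, 89377644 to 89394776), also called ThPOK, sets the CD4 T cell fate. It had 42.6 and 43.7 TPM in the SAFB RIP, against 61.4 and 35.5 TPM in the IgG RIP, a log2 fold change of -0.11 ± 0.29 (limma adjusted p = 0.786), with both SAFB RIP values inside the range of the IgG RIP. Zbtb46, a marker of classical dendritic cells, had 30.4 and 30.7 TPM in the SAFB RIP, against 23.8 and 20.8 TPM in the IgG RIP, a log2 fold change of 0.44 ± 0.18 (limma adjusted p = 0.125). Zbtb32, a repressor in activated lymphocytes, stayed near 2 TPM, at 2.09 and 1.86 TPM in the SAFB RIP against 1.27 and 2.05 TPM in the IgG RIP. The 3 leukocyte markers together stayed below 1 TPM in the SAFB RIP and were listed at 0 in the IgG RIP.

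Zbtb10, which binds a telomere repeat variant in human cells, had 36.6 and 31.3 TPM in the SAFB RIP, against 8.63 and 11.5 TPM in the IgG RIP, a log2 fold change of 1.67 ± 0.25 (limma adjusted p = 0.0125). Zbtb48, also called TZAP, which trims long telomeres in human cells, had 15.7 and 12.5 TPM in the SAFB RIP, against 21.1 and 14.0 TPM in the IgG RIP, a log2 fold change of -0.28 ± 0.31 (limma adjusted p = 0.517). The groups of Zbtb48 overlapped while those of Zbtb10 lay well apart. Zbtb5 and Zbtb2, both repressors of the cell cycle inhibitor p21 in human cells, had log2 fold changes of 1.59 ± 0.38 (limma adjusted p = 0.0342) and 1.40 ± 0.39 (limma adjusted p = 0.0485). Both rose, but Zbtb2 lost its call under 9 of the 15 alternatives and Zbtb5 under 5, in both cases with library medians set equal among them.

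The lower end of the BTB family held Zbtb17, Zbtb7a and Zbtb42, singled out after their values were seen. Zbtb17 (chromosome 4, 141444654 to 141467930), or MIZ1, is the partner through which MYC represses genes. It had 21.6 and 21.3 TPM in the SAFB RIP, against 35.7 and 30.5 TPM in the IgG RIP, a log2 fold change of -0.60 ± 0.18 (limma adjusted p = 0.0642). Zbtb7a (chromosome 10, 81135220 to 81152995), or LRF, a silencer of fetal globin, had 57.2 and 41.0 TPM in the SAFB RIP, against 66.4 and 69.0 TPM in the IgG RIP, a log2 fold change of -0.47 ± 0.20 (limma adjusted p = 0.125). Both SAFB RIP libraries lay below both IgG RIP libraries for these genes. They are the 2 members that fell with library medians set equal, by 1.06 for Zbtb17 (log2 scale; limma adjusted p = 0.0192) and by 0.93 for Zbtb7a (limma adjusted p = 0.0262). With the trend on GC content removed the direction of both turned, to 0.27 for Zbtb17 and 0.31 for Zbtb7a, and neither passed. Zbtb42 had 1.24 and 3.43 TPM in the SAFB RIP, against 6.06 and 5.34 TPM in the IgG RIP, a log2 fold change of -1.09 ± 0.45 that did not pass (limma adjusted p = 0.125).

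Zbtb8a (chromosome 4, 129353628 to 129378116) was, with Zbtb4 and Zbtb7b, one of the 3 BTB genes of smallest change among those with a mean of at least 5 TPM. With library medians set equal the log2 fold changes of Zbtb4 and Zbtb8a turned to -0.42 and -0.23, and neither passed. It had 15.4 and 15.9 TPM in the SAFB RIP, against 12.5 and 13.8 TPM in the IgG RIP, a log2 fold change of 0.23 ± 0.24 (limma adjusted p = 0.481). Of the BTB genes not yet given, Zbtb3, Zbtb26, Zbtb39, Zbtb43, Zbtb44 and Zbtb49 rose, with log2 fold changes of 1.56, 1.48, 1.03, 1.15, 1.56 and 1.06. Zbtb6, Zbtb12, Zbtb14, Zbtb21, Zbtb22, Zbtb34, Zbtb40 and Zbtb45 did not pass, with log2 fold changes between -0.25 (Zbtb45) and 1.35 (Zbtb6). Zbtb7c and Zbtb8b were below the filter, Zbtb8b with 0.185 and 0.264 TPM in the SAFB RIP and listed at 0 in both IgG RIP libraries.

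**Figure D2:**
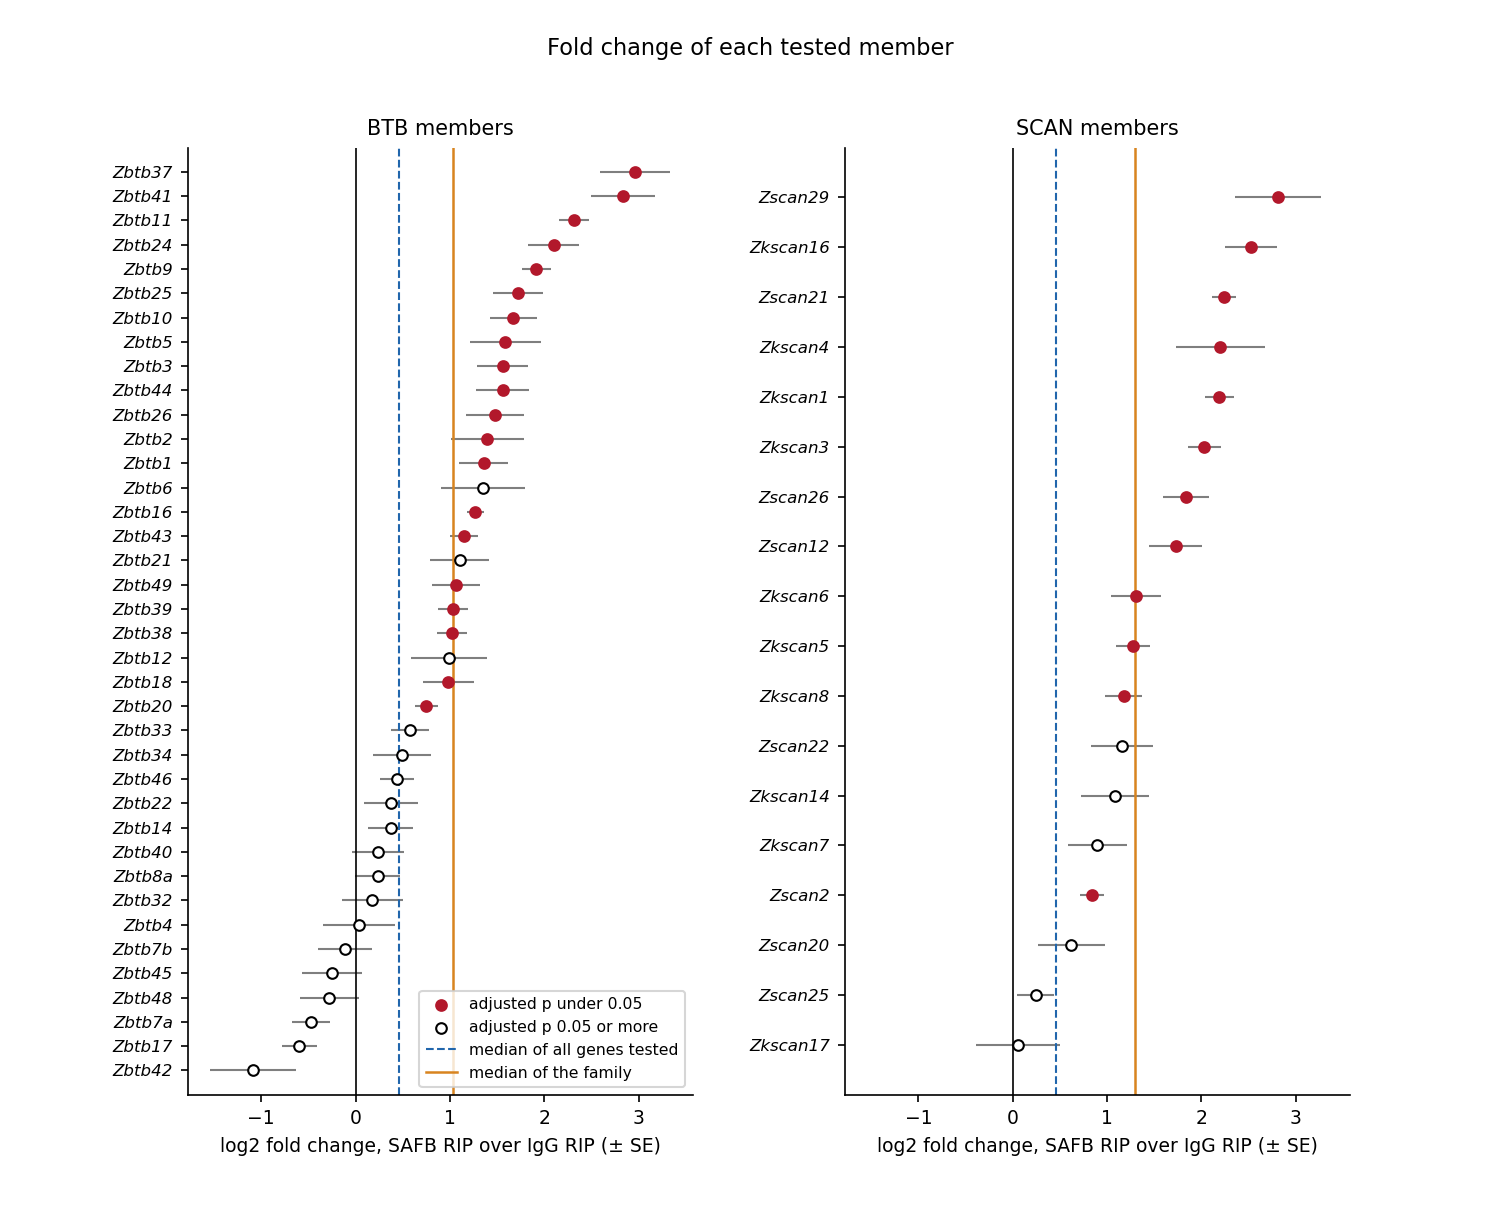
Log2 fold change, SAFB RIP over IgG RIP, with its SE for every tested BTB gene (left) and SCAN gene (right), filled where the adjusted p was under 0.05. The solid line is the family's median (1.03 for BTB, 1.29 for SCAN) and the dashed line that of all genes tested (0.46); the point of Zkscan16 rests on 2 IgG RIP values of 0 and on the pseudocount.

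In the SCAN family the largest fold changes were those of Zscan29, Zscan21, Zkscan4, Zkscan1 and Zkscan3, with Zkscan16 beside them. Zscan29 (chromosome 2, 121158273 to 121171125) had 163 and 149.8 TPM in the SAFB RIP, against 13.3 and 34.5 TPM in the IgG RIP, a log2 fold change of 2.81 ± 0.46 (limma adjusted p = 0.0146). Zscan21 (chromosome 5, 138116903 to 138134265), also called Zipro1, a factor of proliferating cerebellar granule cells, had 185 and 168 TPM in the SAFB RIP, against 34.5 and 38.8 TPM in the IgG RIP. Its log2 fold change was 2.24 ± 0.13 (limma adjusted p = 0.00387). The lowest SAFB RIP value of either gene was several times its highest IgG RIP value.

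Zkscan1 (chromosome 5, 138085084 to 138107822) is known as the host of a circular RNA that is abundant in liver. The table holds 1 value per gene, so linear and circular RNA of Zkscan1 cannot be told apart. Zkscan1 had 149 and 174 TPM in the SAFB RIP, against 31.4 and 37.9 TPM in the IgG RIP, a log2 fold change of 2.19 ± 0.16 (limma adjusted p = 0.00468). Zkscan3 (chromosome 13, 21387003 to 21402755), a repressor of autophagy and lysosome genes in cultured cells, was the most abundant SCAN RNA. It had 343 and 393 TPM in the SAFB RIP, against 103 and 77.1 TPM in the IgG RIP, a log2 fold change of 2.03 ± 0.18 (limma adjusted p = 0.00559). The groups of both genes lay far apart.

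Zkscan4 and Zkscan16 had low levels. Zkscan4 (chromosome 13, 21478907 to 21485507) had 8.44 and 9.17 TPM in the SAFB RIP, against 2.08 and 0.479 TPM in the IgG RIP, a log2 fold change of 2.20 ± 0.47 (limma adjusted p = 0.0266). It did not pass without either SAFB RIP library. Zkscan16 (chromosome 4, 58943628 to 58958355) had 5.03 and 4.51 TPM in the SAFB RIP and was listed at 0 in both IgG RIP libraries. It entered the test through the SAFB RIP alone, so neither a fold nor a p is given for it, although it is counted among the 12 SCAN genes that rose. Without Zkscan16, 11 of 17 SCAN genes tested rose, with a median of 1.28.

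Zscan2 (chromosome 7, 80860920 to 80876537) was the abundant SCAN RNA of smallest change among those that rose. It had 166 and 175 TPM in the SAFB RIP, against 87.0 and 103 TPM in the IgG RIP, a log2 fold change of 0.84 ± 0.13 (limma adjusted p = 0.0128). With library medians set equal its log2 fold change was 0.38 and it did not pass. The remaining SCAN genes that rose were Zscan26, Zscan12, Zkscan6, Zkscan5 and Zkscan8, with log2 fold changes of 1.83, 1.73, 1.31, 1.28 and 1.18. Zscan22, Zkscan14 and Zkscan7 did not pass, with log2 fold changes of 1.16, 1.08 and 0.89, although their SAFB RIP libraries lay above their IgG RIP libraries.

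The SCAN genes of smallest change were Zkscan17, Zscan25 and Zscan20. Zkscan17 (chromosome 11, 59485520 to 59526751) had 34.5 and 40.8 TPM in the SAFB RIP, against 56.2 and 23.1 TPM in the IgG RIP, a log2 fold change of 0.05 ± 0.45 (limma adjusted p = 0.938). Its IgG RIP libraries lay on both sides of the SAFB RIP, and its log2 fold change was -0.57 without IgG RIP replicate 2 and -0.41 with library medians set equal. Zscan25 (chromosome 5, 145280500 to 145291278) had 52.9 and 60.9 TPM in the SAFB RIP, against 55.7 and 41.1 TPM in the IgG RIP, a log2 fold change of 0.24 ± 0.20 (limma adjusted p = 0.386). Zscan20 (chromosome 4, 128583539 to 128610098) had 12.6 and 14.9 TPM in the SAFB RIP, against 6.55 and 11.1 TPM in the IgG RIP, a log2 fold change of 0.62 ± 0.36 (limma adjusted p = 0.231). The groups overlapped for Zscan25, whose log2 fold change was -0.22 with library medians set equal, but not for Zscan20.

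The SCAN genes that were not tested were at or near 0, among them members known from the early embryo. Zscan10, a pluripotency factor, was listed at 0 in all 4 libraries. So were Zscan4b, Zscan4c, Zscan4e and Zscan4f, members of a cluster that marks 2-cell-like embryonic stem cells, and Zscan5b and Zkscan2. Zscan4d reached 0.335 TPM in SAFB RIP replicate 1 and 0.171 TPM in IgG RIP replicate 2, and Zscan18 stayed below 0.5 TPM. In all, 7 of 27 SCAN genes but 0 of 40 BTB genes were listed at 0 in every library. So were 28294 of all 52189 genes and 7073 of 21814 protein-coding genes.

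The BTB median of fold change was lower than the SCAN median by 0.26 on the log2 scale, and no test was made between the families. Within libraries, the BTB median minus the SCAN median of log2(TPM + 1) was -0.49 and -0.53 in the SAFB RIP and 0.28 and -0.49 in the IgG RIP, so IgG RIP replicate 1 alone had the BTB genes higher. The SD of this gap between replicates, combined from both groups, was 0.386. Without IgG RIP replicate 2 the difference in fold change was -0.60. The spread within a family was wider than the gap between the families: the quartiles of log2 fold changes stood at 0.27 and 1.54 in the BTB genes and at 0.94 and 2.15 in the SCAN genes. With a KRAB domain in addition, 7 of 10 Zkscan genes tested rose (median 1.29), and 5 of 8 Zscan genes rose (median 1.44), beside 29.8% of all genes tested.

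**Figure D3:**
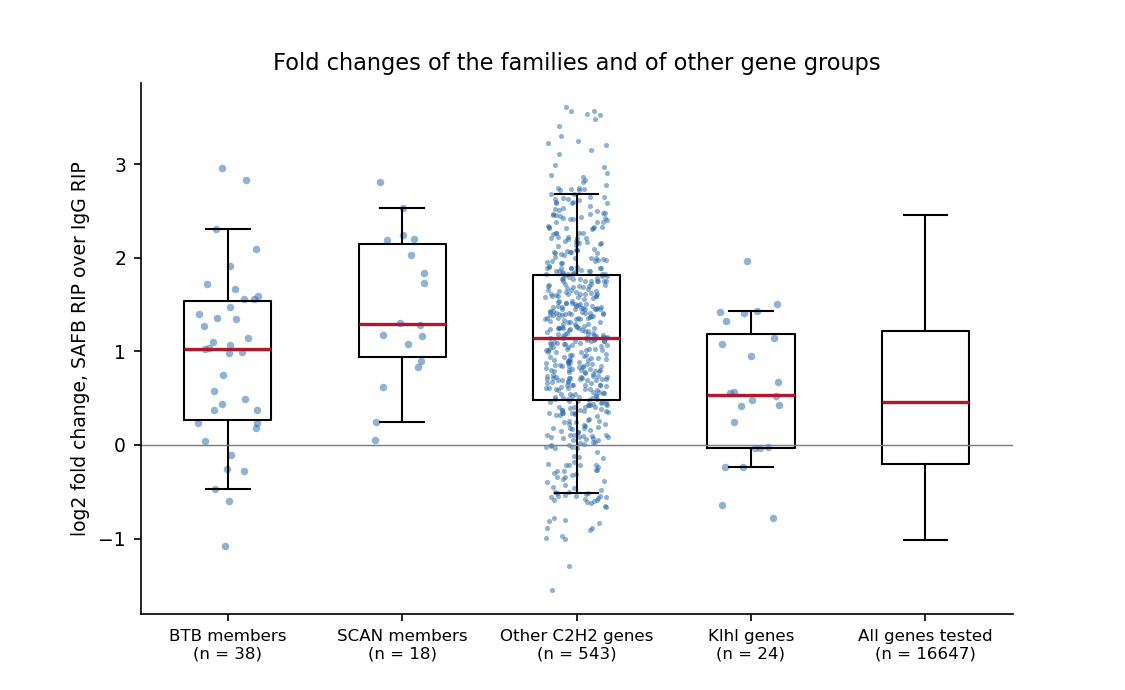
Log2 fold change, SAFB RIP over IgG RIP, of tested BTB members, SCAN members, other genes with a C2H2 motif, Klhl genes and all genes tested. Points are genes (not drawn for all genes), boxes the quartiles with the median in red, whiskers the 5th and 95th percentiles; the medians are 1.03, 1.29, 1.14, 0.54 and 0.46.

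Related genes outside the rule were set beside the members. Of all genes tested, 29.8% rose and 8.3% fell, and in the BTB and SCAN families 52.6% and 66.7% rose. Of 543 other genes tested whose protein holds a C2H2 motif, 287 (52.9%) rose and 10 fell, with a median of 1.14. Klhl genes have a BTB domain but no C2H2 fingers. Of 24 Klhl genes tested, 6 rose and 1 fell, with a median of 0.54, near that of all genes. Of 6 further BTB zinc finger genes tested, 5 rose and 0 fell, with a median of 1.53. Gzf1, the most abundant of them, had 208 and 190.4 TPM in the SAFB RIP, against 27.9 and 30.1 TPM in the IgG RIP, a log2 fold change of 2.74. Of 11 further SCAN genes tested, 6 rose and 1 fell, with a median of 1.23. Peg3, an imprinted SCAN gene, had 4274 and 3874 TPM in the SAFB RIP, against 695 and 710.4 TPM in the IgG RIP, a log2 fold change of 2.53. Scand1, a short gene with a SCAN domain and no fingers, fell to 34.5 and 31.1 TPM in the SAFB RIP, against 100.2 and 96.0 TPM in the IgG RIP, a log2 fold change of -1.55. Its transcript had a GC content of 68.4%. A C2H2 motif was found in 9 of the 11 further SCAN genes tested, so Scand1 was not the only one without. Whether fingers bear on the fold change was not tested.

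The corepressors that work with these proteins did not move as a block. Of 12 corepressor genes of BTB proteins tested, 7 rose and 1 fell, with a median of 0.56, beside 29.8% of all genes that rose and 8.3% that fell. With library medians set equal 5 of them rose and 3 fell. Ncor1 rose, with 445 and 381 TPM in the SAFB RIP against 148 and 184 TPM in the IgG RIP, a log2 fold change of 1.31. Sin3b, a scaffold of histone deacetylase complexes, fell, with a log2 fold change of -0.60. Of 10 corepressor genes of KRAB proteins tested, 5 rose and 1 fell, with a median of 0.58, and with library medians set equal 2 rose and 2 fell. The gene that fell was Trim28, the corepressor that KRAB domains bind, with 116 and 134 TPM in the SAFB RIP against 333 and 301 TPM in the IgG RIP, a log2 fold change of -1.34.

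Among properties of the transcripts that the rule did not use, GC content had correlations of moderate size with fold change in both families. Members that rose were poorer in GC: the median GC content of the representative transcript was 45.2% in BTB genes that rose and 55.1% in those that did not pass. In the SCAN family it was 48.4% in genes that rose and 53.7% in those that did not pass. Across genes, Spearman's rho between log2 fold change and GC content was -0.61 in 38 BTB genes, -0.56 in 18 SCAN genes and -0.51 in 11961 protein-coding genes tested. Genes are not independent replicates and share the 4 libraries, so these are descriptions. At the last base of codons rho was -0.64 in BTB genes, -0.62 in SCAN genes and -0.50 in protein-coding genes.

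Divided at the median GC content of protein-coding genes, 50.5%, 13 of 19 BTB genes at or below it rose (median log2 fold change 1.35), as did 7 of 19 above it (median 0.24). In the SCAN family 8 of 9 genes at or below it rose (median 2.03), as did 4 of 9 above it (median 1.08). Among all protein-coding genes, 42.8% rose at or below that value and 13.8% rose above it. With the trend of fold change on GC content removed, 20 BTB and 15 SCAN genes rose and 0 fell, beside 31.2% of all genes that rose and 3.18% that fell. How GC content enters the measurement was not tested.

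**Figure D4:**
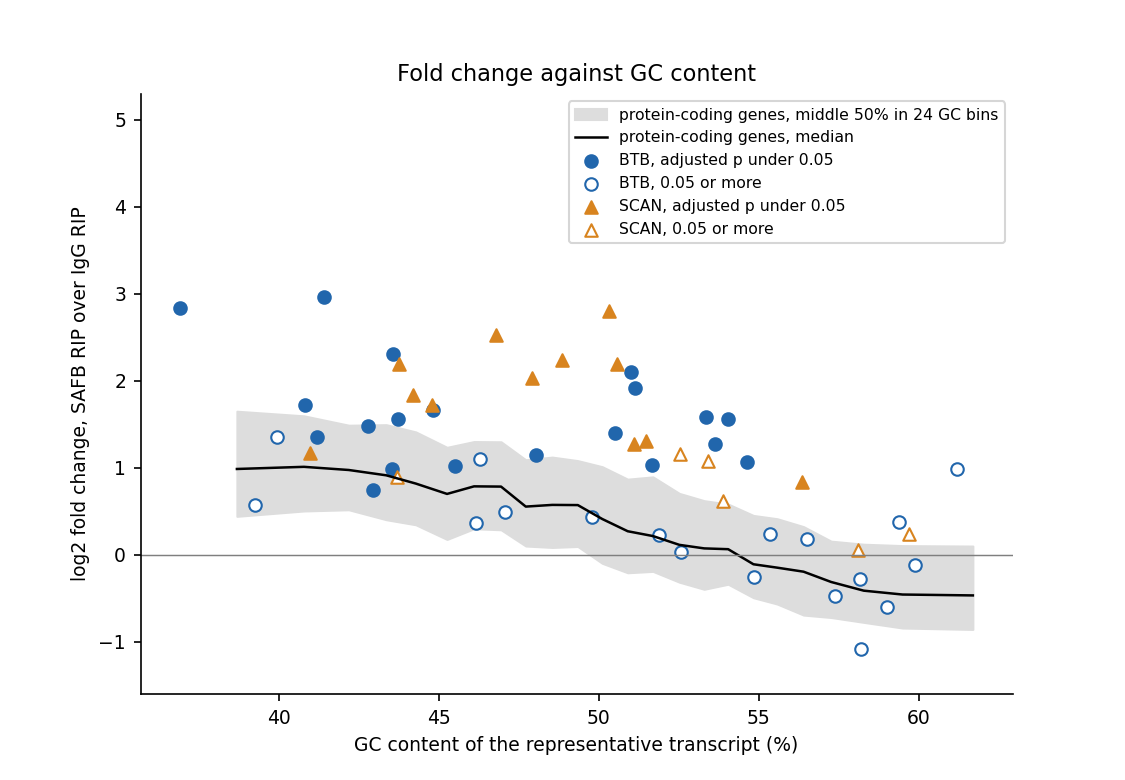
Log2 fold change, SAFB RIP over IgG RIP, against the GC content (%) of the representative transcript, for BTB genes (circles) and SCAN genes (triangles), filled where the adjusted p was under 0.05. The line is the median of protein-coding genes in bins of GC content and the band spans their quartiles; it slopes down, and so do the members of both families (rho -0.61 in BTB and -0.56 in SCAN genes).

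Other properties followed the fold change less. The number of C2H2 motifs had a rho of -0.10 in BTB genes and -0.10 in SCAN genes, but 0.36 across 543 other C2H2 genes. For the number of linkers rho was -0.20 in BTB genes, -0.13 in SCAN genes and 0.41 in other C2H2 genes. Transcript length had a rho of 0.12 in BTB genes, 0.05 in SCAN genes and 0.18 in protein-coding genes. The purine motif GAAGAA, searched on the RNA strand of whole transcripts and counted per kb, had a rho of -0.01 in BTB genes, 0.47 in SCAN genes and 0.34 in protein-coding genes. It was found in 34 of 38 BTB and 17 of 18 SCAN transcripts, or 89.5% and 94.4%, beside 82.3% of protein-coding transcripts tested. The median transcript was 4533 bases in 3 exons for BTB genes and 3288 bases in 6 exons for SCAN genes. For protein-coding genes tested it was 2913 bases in 9 exons. The shares of transcripts with the motif were not adjusted for length.

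Several members lie within 1 Mb of each other in the genome. Genes between them that the rule does not match were not considered in this grouping. On chromosome 13, between 21362820 and 21531120, lie 5 SCAN members, Zscan12, Zkscan3, Zscan26, Zkscan4 and Zkscan8. All 5 rose, beside 29.8% of all genes. Zkscan4 and Zkscan8 did not pass with library medians set equal or with either SAFB RIP library left out. Zkscan1 and Zscan21, near each other on chromosome 5, both rose, as did Zbtb25 and Zbtb1 on chromosome 12. In a second group on chromosome 5, between 145194946 and 145291278, Zkscan5 rose while Zkscan14 and Zscan25 did not pass. No tested member rose in the groups of Zbtb22 and Zbtb12 (chromosome 17), Zscan20 and Zbtb8a (chromosome 4), and Zscan22 and Zbtb45 (chromosome 7). Of Zbtb34 and Zbtb43, near each other on chromosome 2, only Zbtb43 rose. On chromosome 2, Zbtb26 rose and Zbtb6, which shares exon sequence with it on the same strand, did not pass. How their shared reads were assigned is not given in the sources used here, so the values of Zbtb6 and Zbtb26 are uncertain.

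An exon overlapped that of another gene in 23 of the 56 members tested, of which 12 rose. Of the 33 without such overlap 20 rose, and of all genes tested 29.8%. The libraries were strand-specific, but whether strand was used in counting is not given in the sources used here, so genes that overlap on opposite strands cannot be told apart. Zbtb17 overlaps Spen, which rose with 235 and 239 TPM in the SAFB RIP against 80.4 and 57.2 TPM in the IgG RIP, while Zbtb17 had the lower values given above. Zscan29 overlaps Tubgcp4, which had 78.7 and 84.4 TPM in the SAFB RIP against 94.5 and 88.6 TPM in the IgG RIP and did not pass. In both pairs the overlapping genes had fold changes of opposite sign. Zbtb11 overlaps Pcnp, and both rose. Zbtb11 also shares exon sequence on the same strand with Gm28037, which did not pass and had a log2 fold change of -0.91.

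The 7 entries given apart showed no call. Zbtb8os, a protein-coding gene without C2H2 motifs, had 13.6 and 13.5 TPM in the SAFB RIP, against 6.35 and 6.95 TPM in the IgG RIP, a log2 fold change of 0.93 ± 0.28 (limma adjusted p = 0.0604). Zbtb11os1 had 1.62 and 2.20 TPM in the SAFB RIP, against 4.58 and 0.845 TPM in the IgG RIP, with overlapping groups. Zscan30, annotated in mouse as a transcribed processed pseudogene, had 30.2 and 48.1 TPM in the SAFB RIP, against 28.7 and 35.1 TPM in the IgG RIP. The other 4 were Zscan4a, an annotated pseudogene, and Zscan4-ps1, Zscan4-ps2 and Zscan4-ps3, which carry a pseudogene symbol but are annotated as protein-coding in GENCODE M21. None was above 0.1 TPM in any library.

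**Figure D5:**
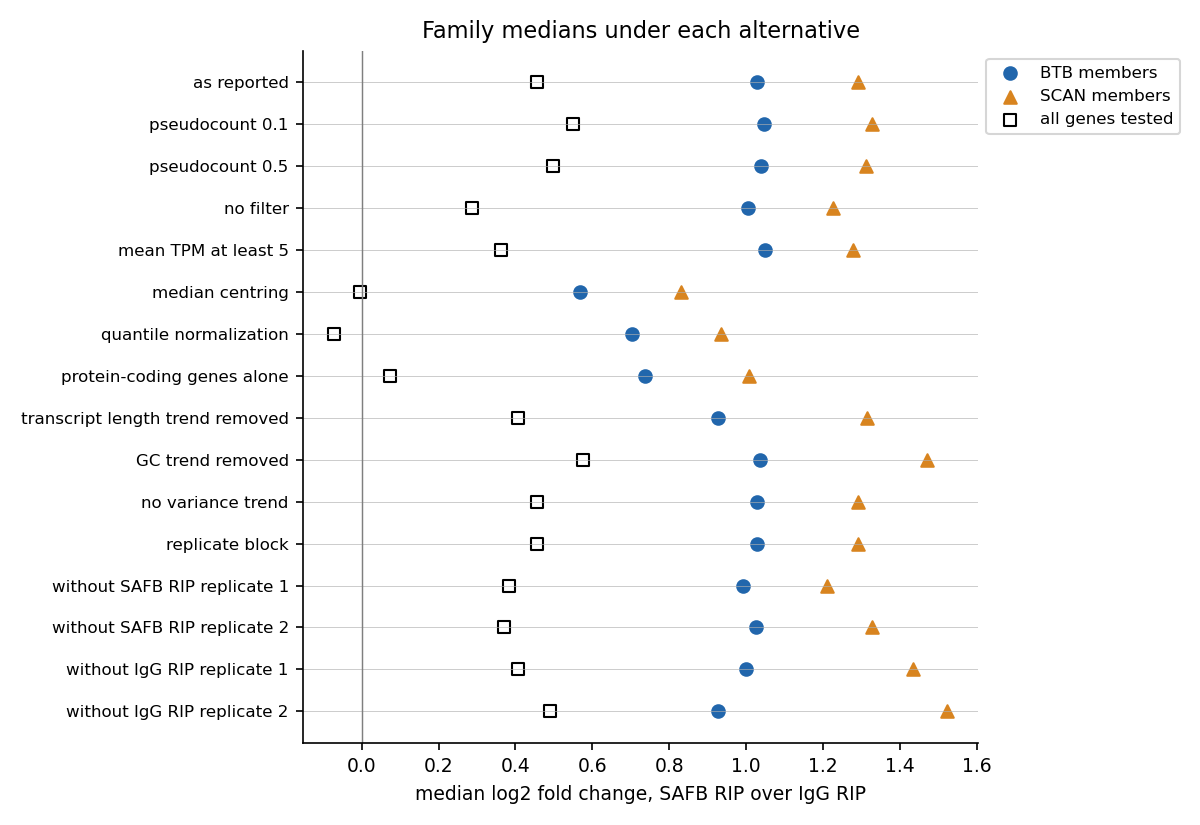
Median log2 fold change, SAFB RIP over IgG RIP, of the BTB members (circles), SCAN members (triangles) and all genes tested (squares) as reported and under 15 alternatives. Both family medians lie above that of all genes in every row, and the BTB median below the SCAN median; median centring gives the lowest values, 0.57 and 0.83.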

How the data were processed

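The authors deposited 1 table of TPM values, with a column for each of the 2 SAFB RIP and 2 IgG RIP libraries. Per the submitters' processing notes the tools were HISAT2, StringTie, HTSeq and DESeq2 and the build mm10, with no roles or versions. Neither the annotation, the program that made the TPM values nor the use of strand is stated. Depth is unknown, so no counting interval was computed, and a gene at 0 is only said to be listed at 0.

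Of 52197 entries, 14 that shared 6 identifiers were summed, which left 52189. Of these, 52042 were found in GENCODE M21 (mm10), the source of coordinates, biotypes and sequences. The transcript with the longest coding sequence represented each gene. C2H2 motifs were C-x2-4-C-x12-H-x3-5-H, and the linker was searched in the same proteins.

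A gene entered the test with 1 TPM or more in 2 or more libraries (16647 genes), on log2(TPM + 1), which understates fold changes of low genes. The 2 groups were fitted in limma 3.58.1 (R 4.3.3) with a variance trend, two-sided, with Benjamini-Hochberg adjustment and a threshold of 0.05. The fit was also run on simulated libraries with normal noise drawn from its own fitted variances. Such a run cannot show whether the calls hold for these data. With 2 libraries on each side an exact permutation test is limited to p of 0.333 or more, so none was used. Separate cultures are not mentioned for the replicates, so p-values measure only the spread between these libraries, which may be technical. Equal replicate numbers are not said to mark a shared lysate, so the fit reported has no block.

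Named members of each family were, by rule, the 6 called genes of largest positive fold change without overlap, all called lower, the 5 of highest mean TPM and the 3 of smallest change with a mean of at least 5 TPM. Other members, and genes outside the rule other than the 3 of highest mean TPM in their list, were named after their values were seen. Members, lists and tests were chosen with earlier results of these data known. Alternatives were pseudocounts of 0.1 and 0.5, no filter and a mean of 5 TPM, median centring, quantile normalization, protein-coding genes alone, removal of trends on transcript length or GC content, no variance trend, a replicate block and each library left out.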

Additional observations from a re-analysis of the deposited data

How the results depend on the processing

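All 15 alternatives were run, and no family median changed sign. With median centring 11 BTB genes rose and 2 fell, with medians of 0.57 (BTB) and 0.83 (SCAN). Quantile normalization gave 3 BTB genes lower, beside 17.9% of all genes, and medians of 0.70 and 0.94. Protein-coding genes alone, rescaled among themselves, gave 2 BTB genes lower, beside 19.2% of all genes, and medians of 0.74 and 1.01. With 1 library left out in turn, 10 to 28 BTB genes rose and 0 to 2 fell (median 0.93 to 1.03), and 7 to 17 SCAN genes rose and 0 to 1 fell (median 1.21 to 1.52). In these fits 13.4% to 47.6% of all genes rose and 3.77% to 16.1% fell, and the BTB median minus the SCAN median ran between -0.60 and -0.22. Each leaves a group with 1 library, which is assumed to vary like the other group.

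The log2 fold changes of some genes that had not passed changed sign. For Zbtb4, Zbtb8a, Zkscan17 and Zscan25 they were -0.42, -0.23, -0.41 and -0.22 with median centring, -0.34, -0.28, -0.27 and -0.062 with quantile normalization, and -0.26, -0.048, -0.24 and -0.053 with protein-coding genes alone. Removing the trend on transcript length gave -0.23 for Zbtb4, and removing that on GC content gave 0.77 for Zbtb7b, 0.27 for Zbtb17 and 0.31 for Zbtb7a. With 1 library left out, Zbtb4 ran between -0.47 and 0.54, Zbtb7b between -0.50 and 0.28 and Zkscan17 between -0.57 and 0.67. The cause of these changes was not tested. Of the values of 26 named genes under these alternatives, 327 kept their direction and side of the threshold, 25 lost the call, 13 gained it and 21 changed sign.

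A fit with the replicate number as a block gave 20 BTB and 12 SCAN genes higher, the same counts as without it, but Zbtb2 lost its call and Zbtb21 gained one. Deviations from the group means of libraries of equal number correlated at -0.02 across genes. With 2 libraries in each group this value cannot show whether libraries of equal number share a lysate. Without a known depth, the precision of low values such as those of Zkscan4 or Zbtb42 cannot be given.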

Other observations

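Genes that lie within or across members gave values of their own. Zbtb20 spans a long stretch of chromosome 16, and 3 processed pseudogenes lie in it on the same strand. BC002163 had 34.9 and 38.7 TPM in the SAFB RIP, and was listed at 0 and had 0.764 TPM in the IgG RIP. Gm15712 had 56.1 and 52.3 TPM in the SAFB RIP, against 2.50 and 6.63 TPM in the IgG RIP, a log2 fold change of 3.42 ± 0.44 (limma adjusted p = 0.00939). The third, Gm15711, had 45.1 and 52.4 TPM in the SAFB RIP, against 49.0 and 34.0 TPM in the IgG RIP, and did not pass. Zbtb20 itself had a log2 fold change of 0.75. Processed pseudogenes share sequence with their parent genes, so these values are uncertain.

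The antisense gene 1700055D18Rik, which overlaps an exon of Zbtb5, had 8.42 and 12.3 TPM in the SAFB RIP, against 0.717 and 0.0824 TPM in the IgG RIP. Both it and BC002163 entered the test through the SAFB RIP alone, so no fold or p is given for them. Tapbp, an antigen-loading gene that overlaps Zbtb22 on the same strand, fell to 93.8 and 101.8 TPM in the SAFB RIP, against 224 and 219 TPM in the IgG RIP (log2 fold change -1.18, limma adjusted p = 0.00533). Complement C2, opposite Zbtb12, fell by 0.73 on the log2 scale. Zbtb22 and Zbtb12 did not pass, and how reads of the shared exons were assigned is not given in the sources used here.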
